A study of Mus musculus with 12 samples.

Results

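Bcl2 family genes, which set the threshold for mitochondrial cell death, were followed in the contused spinal cord of mice without interleukin-1 alpha (Il1a KO), mice without interleukin-1 beta (Il1b KO) and wild type C57BL/6 mice. The family was taken as 10 genes named by symbol, of which 9 had a probe set annotated with a single gene symbol, among 19938 genes measured that way. The 9 were the survival genes Bcl2, Bcl2l1 and Mcl1, the pore-forming effector Bak1, and the BH3-only genes Bcl2l11 (Bim), Bid, Bmf, Bbc3 (Puma) and Pmaip1 (Noxa). Bax, the other effector, was not analysed here. Each of the 9 was represented by 1 probe set.

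Cell death through this family turns on protein contacts at the outer membrane of mitochondria. Survival proteins hold the effectors Bax and Bak1 in check, and BH3-only proteins, made or activated under stress, bind the survival proteins or engage the effectors until the membrane opens and cytochrome c is released. After a contusion of the cord, neurons and oligodendrocytes are lost by this and other routes, and infiltrating myeloid cells use the same genes to set their own lifespan. Much of the family's control lies in the proteins (cleavage of Bid by caspase-8, destruction of Mcl1 by the proteasome), which an array of transcripts does not measure.

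Each genotype was represented by 4 arrays of total RNA, labelled as biological replicates, on a C57BL/6 background. All mice, wild type included, were aged 8 to 12 weeks and received a 50 kdyn contusion, and a 6 mm length of cord around the lesion was taken at 24 h. There were no uninjured mice among these samples, so the values compare genotypes within injury and do not show what injury did to a gene. Expression is given on the log2 scale, where a difference of 1 is a doubling. Which exons the knockouts lack is unstated in the labels.

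Array medians lay between 7.67 and 7.72, and any pair of arrays correlated at r = 0.993 to 0.999 across genes. Each targeted gene was lower in its own knockout than in wild type. Il1a averaged 4.97 ± 0.0749 in the Il1a KO and 5.87 ± 0.232 in wild type (SD, n = 4 each), and Il1b averaged 6.42 ± 0.183 in the Il1b KO and 7.83 ± 0.161 in wild type (SD, n = 4 each). The Il1a level of the Il1b KO, 5.10 ± 0.209 (SD, n = 4), likewise fell short of wild type (limma adjusted p = 0.0039). Between the Il1a KO and the Il1b KO the log2 difference of Il1a was -0.13 (95% interval -0.37 to 0.12, limma adjusted p = 0.849). Il1a, a dim gene at percentile 9.37 of all genes by level, thus did not tell the knockouts apart, whereas Il1b did. Il1a KO replicate 1 had the sex-linked profile of the other sex, with Xist at 6.47 against 11.89 to 12.19 in the other 11 arrays and the Y-linked Eif2s3y at 9.15 against 3.65 to 3.94. Wild type replicate 1 had the highest lower quartile of all probe sets (6.29, against 6.16 to 6.24 in the other arrays). The member results are therefore also given without each of these 2 arrays. The tissue carried the markers of its label, since the 15 neuron markers averaged 11.42 to 11.50 in the Il1a KO, 11.44 to 11.51 in the Il1b KO and 11.43 to 11.46 in wild type, and the 11 measured markers of mature oligodendrocytes averaged 11.66 to 11.84, 11.62 to 11.74 and 11.50 to 11.66 in the same groups.

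No measured Bcl2 family transcript passed the test with loss of either cytokine. By limma, with p-values adjusted over all genes (Benjamini-Hochberg, threshold 0.05), 0 of 9 members passed in the Il1a KO against wild type, where 0.171% of all genes passed (0.0752% higher and 0.0953% lower). In the Il1b KO against wild type 0 of 9 passed, where 0.813% of all genes did (0.421% higher and 0.391% lower), and between the Il1a KO and the Il1b KO 0 of 9 passed, against 0.652% of all genes (0.346% higher and 0.306% lower). At an unadjusted p under 0.05 the counts were 0 of 9, 0 of 9 and 1 of 9 members (Bmf), where 8.32%, 13% and 7.79% of all genes lay below that level. With 9 members and such small shares, counts of 0 lie near the background and say little about the family, so the intervals are given. The 95% intervals of all 9 members lay within -0.26 and 0.30 for the Il1a KO against wild type and within -0.32 and 0.19 for the Il1b KO against wild type. In this fit of all arrays, a rise of more than 1.23-fold, or a fall of more than 1.24-fold, against wild type was thus outside each measured member's interval. With single arrays left out, the largest 95% bound of any member, whatever its sign, was 0.26 to 0.36 in the Il1a KO against wild type. In the Il1b KO it was 0.27 to 0.38, so the bounds are wider there. The median size of the difference, whatever its sign, was 0.0529 over the members and 0.0439 over all genes in the Il1a KO, and 0.0469 over the members and 0.0550 over all genes in the Il1b KO.

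**Figure D1:**
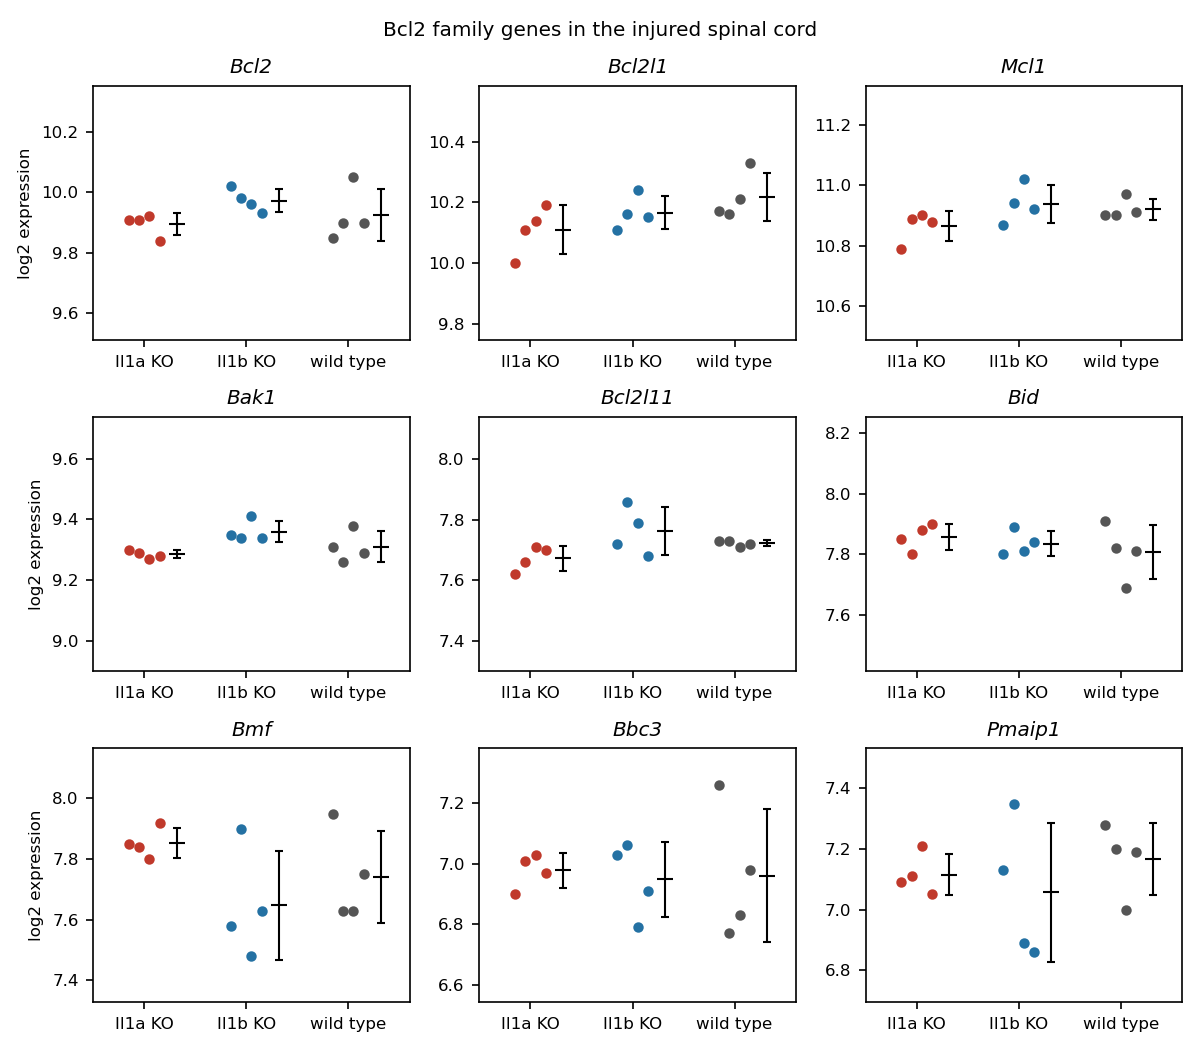
Log2 expression (y axis) of the 9 measured Bcl2 family genes in each array of the Il1a KO, the Il1b KO and wild type (x axis, replicates 1 to 4 from left to right within a group). Points are arrays, horizontal ticks with bars are the mean and SD of 4 arrays, and every panel spans the same height of the log2 scale; the groups overlap in most panels, and Bmf, Bbc3 and Pmaip1 scatter most.

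**Figure D2:**
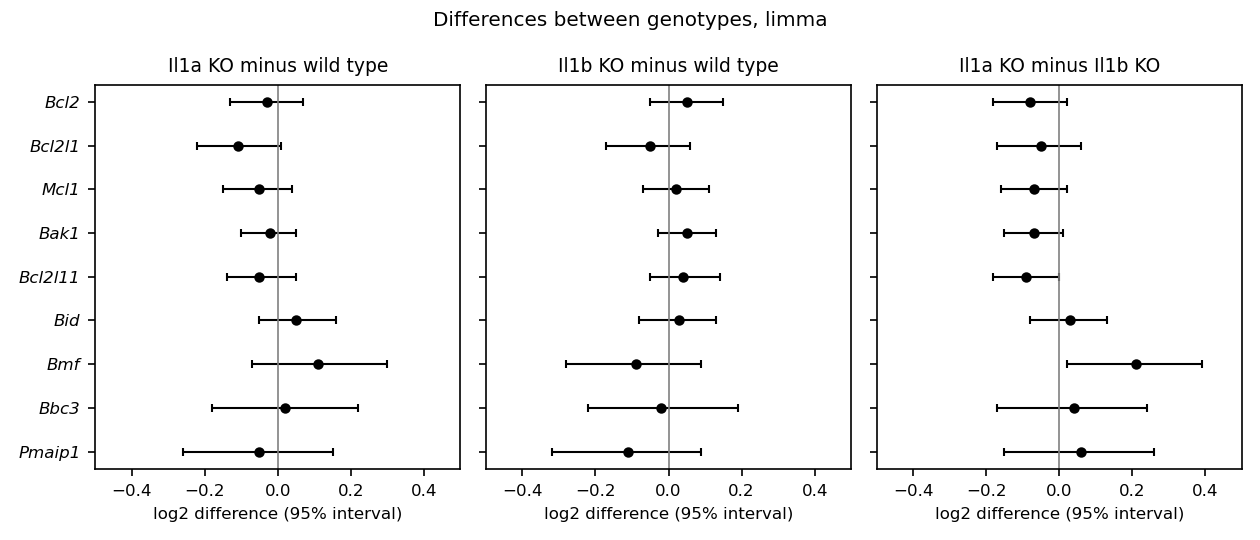
Log2 difference (x axis, point) with its 95% interval (bar) from limma for each measured Bcl2 family gene (y axis) in the 3 comparisons. The interval includes 0 in all but 1 case, Bmf in the Il1a KO minus the Il1b KO (0.02 to 0.39), and none reaches beyond 0.39 in size.

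Among the survival genes, Bcl2l1, which encodes Bcl-xL, the main survival protein of mature neurons, had the largest shift. It read 10, 10.11, 10.14 and 10.19 in the Il1a KO, 10.11, 10.16, 10.24 and 10.15 in the Il1b KO, and 10.17, 10.16, 10.21 and 10.33 in wild type. Il1a KO replicate 1 was the lowest array and wild type replicate 4 the highest, and the groups overlapped. The log2 difference was -0.11 in the Il1a KO (95% interval -0.22 to 0.01, limma adjusted p = 0.632) and -0.05 in the Il1b KO (-0.17 to 0.06, adjusted p = 0.707), both against wild type.

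Mcl1, a short-lived survival protein on which neutrophils and other myeloid cells depend, read 10.79, 10.89, 10.90 and 10.88 in the Il1a KO, 10.87, 10.94, 11.02 and 10.92 in the Il1b KO, and 10.90, 10.90, 10.97 and 10.91 in wild type. Il1b KO replicate 3 and Il1a KO replicate 1 were its extremes, and the wild-type arrays lay between them. The log2 difference was -0.05 in the Il1a KO (95% interval -0.15 to 0.04, limma adjusted p = 0.841) and 0.02 in the Il1b KO (-0.07 to 0.11, adjusted p = 0.891). Bcl2, the founding member, read 9.91, 9.91, 9.92 and 9.84 in the Il1a KO, 10.02, 9.98, 9.96 and 9.93 in the Il1b KO, and 9.85, 9.90, 10.05 and 9.90 in wild type. Every Il1a KO array was below every Il1b KO array for Bcl2, while wild type spanned both, and the log2 difference between the knockouts was -0.08 (-0.18 to 0.02, limma adjusted p = 0.75).

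Bak1, the measured effector, which forms the pore in the mitochondrial membrane, varied least. It read 9.30, 9.29, 9.27 and 9.28 in the Il1a KO, 9.35, 9.34, 9.41 and 9.34 in the Il1b KO, and 9.31, 9.26, 9.38 and 9.29 in wild type. Its spread within groups (SD 0.0359) lay at percentile 4.1 of all genes. The Il1a KO arrays again lay below all Il1b KO arrays, with a log2 difference of -0.07 (95% interval -0.15 to 0.01, limma adjusted p = 0.682), and wild type overlapped both. Groups that did not overlap were found in 2 of 9 members (Bcl2 and Bak1) in the Il1a KO against the Il1b KO, where 7.24% of all genes showed this, and in 0 of 9 members in the Il1a KO and 0 of 9 in the Il1b KO against wild type, where 5.06% and 7% of all genes did.

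Bmf, a BH3-only gene whose protein is kept on the cytoskeleton until released, showed the widest gap between the knockouts. It read 7.85, 7.84, 7.80 and 7.92 in the Il1a KO, 7.58, 7.90, 7.48 and 7.63 in the Il1b KO, and 7.95, 7.63, 7.63 and 7.75 in wild type. The Il1a KO arrays were tight, and Il1b KO replicate 2 stood with them rather than with its own group. The log2 difference between the Il1a KO and the Il1b KO was 0.21 (SE 0.0865, 95% interval 0.02 to 0.39, unadjusted p = 0.0338 by limma), 1.15-fold, and it did not pass over all genes (limma adjusted p = 0.59). Over 19 alternatives this difference ranged from 0.15 to 0.29, with an adjusted p of 0.0983 to 1.0. Against wild type the differences were 0.11 in the Il1a KO (-0.07 to 0.30) and -0.09 in the Il1b KO (-0.28 to 0.09).

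Bbc3, the BH3-only gene best known as a target of p53, read 6.90, 7.01, 7.03 and 6.97 in the Il1a KO, 7.03, 7.06, 6.79 and 6.91 in the Il1b KO, and 7.26, 6.77, 6.83 and 6.98 in wild type. Wild type replicate 1 was the highest and wild type replicate 2 the lowest of all 12 arrays, so both knockouts lay inside the wild-type range. Its log2 difference was 0.02 in the Il1a KO (95% interval -0.18 to 0.22) and -0.02 in the Il1b KO (-0.22 to 0.19). Leaving out single arrays turned the sign of both, to values between -0.04 and 0.12 in the Il1a KO and between -0.08 and 0.09 in the Il1b KO.

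Pmaip1, whose protein binds Mcl1 in particular, read 7.09, 7.11, 7.21 and 7.05 in the Il1a KO, 7.13, 7.35, 6.89 and 6.86 in the Il1b KO, and 7.28, 7.20, 7 and 7.19 in wild type. The Il1b KO held both its highest and its lowest arrays, with an SD of 0.227 against 0.0686 in the Il1a KO and 0.117 in wild type. The log2 difference was -0.05 in the Il1a KO (95% interval -0.26 to 0.15) and -0.11 in the Il1b KO (-0.32 to 0.09, limma adjusted p = 0.665). Bid, which caspase-8 cleaves to link death receptors to mitochondria, read 7.85, 7.80, 7.88 and 7.90 in the Il1a KO, 7.80, 7.89, 7.81 and 7.84 in the Il1b KO, and 7.91, 7.82, 7.69 and 7.81 in wild type. Its groups overlapped throughout, with log2 differences of 0.05 (-0.05 to 0.16) in the Il1a KO and 0.03 (-0.08 to 0.13) in the Il1b KO.

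Bcl2l11 encodes Bim, which limits the lifespan of lymphocytes and myeloid cells and is induced by FOXO factors in neurons deprived of trophic support. It also lies close to the targeted genes on chromosome 2. In the gene order of RefSeq GRCm38.p6 it was the fifteenth measured gene from Il1a, with 14 measured genes between them. Bcl2l11 read 7.62, 7.66, 7.71 and 7.70 in the Il1a KO, 7.72, 7.86, 7.79 and 7.68 in the Il1b KO, and 7.73, 7.73, 7.71 and 7.72 in wild type. The wild-type arrays were nearly identical (SD 0.0106, n = 4), the Il1a KO lay at or below them, and the Il1b KO spanned them. The log2 difference was -0.05 in the Il1a KO (95% interval -0.14 to 0.05, limma adjusted p = 0.879), 0.04 in the Il1b KO (-0.05 to 0.14, adjusted p = 0.723) and -0.09 between the Il1a KO and the Il1b KO (-0.18 to 0.00, adjusted p = 0.67).

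Its neighbours were compared in the same way. Of the 14 measured genes between Bcl2l11 and Il1a, 0 passed by limma in the Il1a KO (lowest adjusted p = 0.18) and 0 in the Il1b KO (lowest adjusted p = 0.353). Of the 14 on its other side 0 passed in the Il1a KO, and 2 fell in the Il1b KO, where 0.391% of all genes did. A wider stretch of 197 measured genes around Bcl2l11 was taken without the targeted genes and without Il1bos, the measured gene next to Il1b. In it 1 passed in the Il1a KO and 12 passed in the Il1b KO, against 0.171% and 0.813% of all genes. Il1bos itself was at 0.28 in the Il1a KO and 0.95 in the Il1b KO (limma adjusted p = 0.454 and 3.62e-04). The 2 that fell near Bcl2l11 were Mall, a membrane protein of the MAL family, with 8.20 ± 0.0669 in the Il1b KO and 8.64 ± 0.0983 in wild type (SD, n = 4 each; log2 difference -0.44, limma adjusted p = 9.51e-04), and Kcnip3, a calcium-binding partner of potassium channels, with 10.79 ± 0.0364 in the Il1b KO and 11.18 ± 0.152 in wild type (SD, n = 4 each; log2 difference -0.39, adjusted p = 0.00774). The Kcnip3 call was lost when wild type and the Il1b KO were fitted without the third group (adjusted p = 0.0597). The measured gene next to Bcl2l11 towards Il1a was Morrbid, a long noncoding RNA that represses Bcl2l11 on the same chromosome in mouse myeloid cells. Morrbid read 9.36, 9.34, 9.38 and 9.50 in the Il1a KO, 9.38, 9.54, 9.53 and 9.43 in the Il1b KO, and 9.70, 9.49, 9.58 and 9.55 in wild type. Its log2 difference was -0.19 in the Il1a KO (95% interval -0.31 to -0.07, limma adjusted p = 0.32) and -0.11 in the Il1b KO (-0.23 to 0.01, adjusted p = 0.412), so neither passed. Acoxl, an acyl-CoA oxidase relative and the neighbour on the other side, was at -0.08 in the Il1a KO and -0.09 in the Il1b KO (adjusted p = 0.911 and 0.729). Bmf and Bcl2l1 lie on the same chromosome, 159 and 195 measured genes from Il1a.

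**Figure D3:**
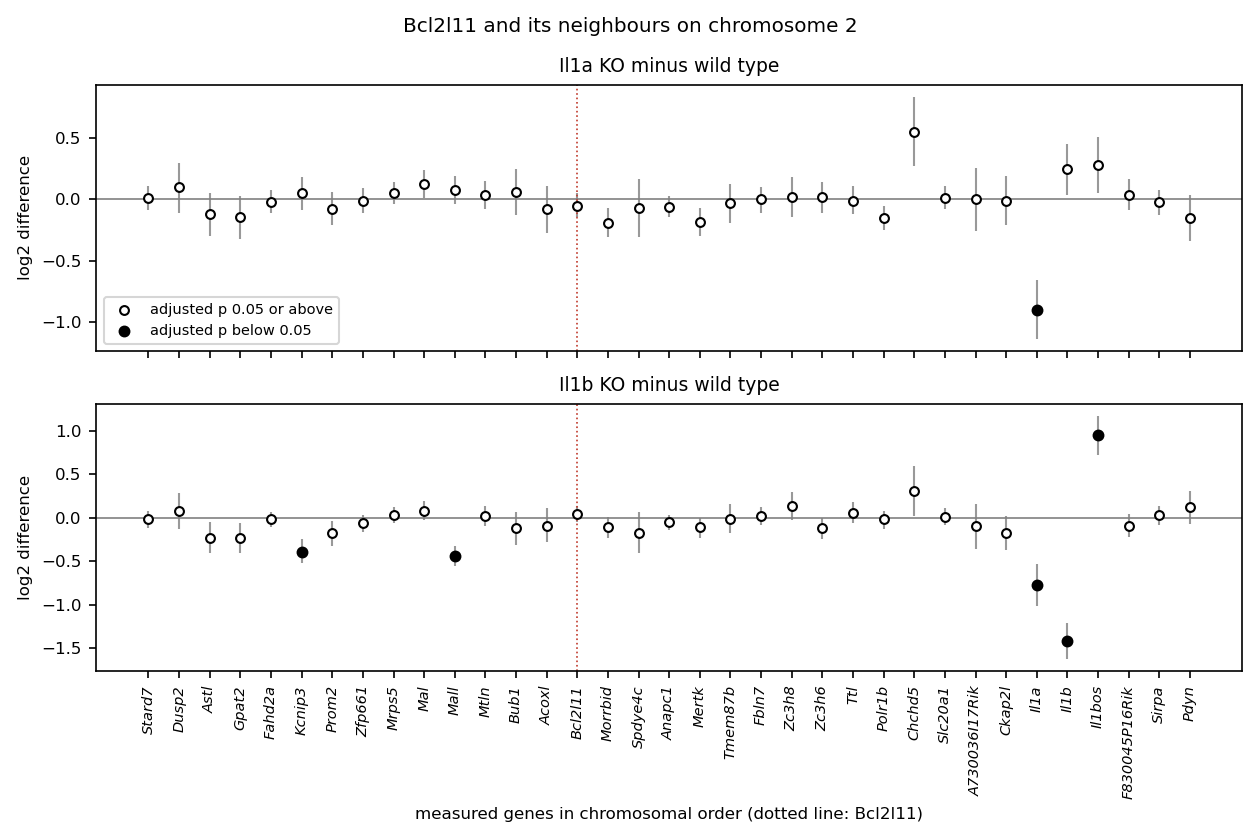
Log2 difference (y axis, point, with 95% interval from limma) of the measured genes around Bcl2l11 in chromosomal order (x axis), in the Il1a KO minus wild type (top) and the Il1b KO minus wild type (bottom). Filled points passed at an adjusted p below 0.05; Bcl2l11, at the dotted line, sits at -0.05 and 0.04 while Il1a, at the right, is at -0.90 and -0.77.

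Promoter sequence is shown for Bcl2l11 and Bbc3, the 2 members with an exact match to the FOXO motif, since FOXO factors are known inducers of both. The sequences are from RefSeq (GRCm38.p6) and cover the 250 bases before an annotated start, on the plus strand, at chr2:128125788-128126037 for Bcl2l11 and chr7:16310011-16310260 for Bbc3. The motif TGTTTAC, searched on both strands, is in capitals, and reads as its reverse complement in Bcl2l11.
Bcl2l11: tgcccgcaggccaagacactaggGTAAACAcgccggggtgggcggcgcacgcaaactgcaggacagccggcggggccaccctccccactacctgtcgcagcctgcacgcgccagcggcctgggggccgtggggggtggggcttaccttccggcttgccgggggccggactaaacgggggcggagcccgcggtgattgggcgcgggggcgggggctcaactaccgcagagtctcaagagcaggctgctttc
Bbc3: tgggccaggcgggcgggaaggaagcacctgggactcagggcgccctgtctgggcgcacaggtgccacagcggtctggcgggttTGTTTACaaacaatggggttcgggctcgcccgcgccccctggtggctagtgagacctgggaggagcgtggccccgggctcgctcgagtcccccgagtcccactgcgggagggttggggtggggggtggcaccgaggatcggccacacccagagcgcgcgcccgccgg
The match begins 227 bases before the start in Bcl2l11 and 167 bases before it in Bbc3. The windows searched were 16 windows of 9 family genes, Bax among them and Pmaip1 not. The FOXO motif was in 2 of the 16, and in 3.2% of all 32851 windows. The NF-kB motif (GGGA, any 4 bases, then CC, on both strands), of interest because interleukin-1 receptors signal through NF-kB, was in 2 of the 16 windows, of Bak1 and Bbc3, and in 17.6% of all windows. The motif letters describe the windows and do not show binding. The transcript of Foxo3, named here after its value was seen, was at 9.10 ± 0.0311 in the Il1a KO, 9.15 ± 0.0293 in the Il1b KO and 9.10 ± 0.0669 in wild type (SD, n = 4 each), with log2 differences of 0.01 and 0.05 against wild type (limma adjusted p = 0.991 and 0.633).

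Genes that feed into the family or act after it were compared from 7 lists holding 65 genes, of which 57 were measured. In the Il1a KO against wild type 0 of the 57 rose and 1 fell, where 0.0752% of all genes rose and 0.0953% fell. In the Il1b KO 0 rose and 0 fell, where 0.421% and 0.391% of all genes did. Between the Il1a KO and the Il1b KO the counts were likewise 0 and 0, against 0.346% and 0.306% of all genes. At such shares, counts of 0 over these lists, and in each single list below, lie near the background and say little about the lists. At an unadjusted p under 0.05 by limma, 3 were higher and 7 lower in the Il1a KO, where 4.54% of all genes were higher and 3.77% lower at that level. In the Il1b KO 2 were higher and 8 lower, where 8.42% of all genes were higher and 4.58% lower. Between the Il1a KO and the Il1b KO 4 were higher and 3 lower, where 2.99% of all genes were higher and 4.80% lower. The median log2 difference over the 57 was -0.01 in the Il1a KO and -0.03 in the Il1b KO, against 0.00 over all genes in both.

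The gene that fell was Atf3, a stress-induced transcription factor that marks injured neurons and was listed among inducers of BH3-only genes. It read 9.14, 8.99, 9.04 and 8.99 in the Il1a KO, 9.20, 9.31, 9.43 and 9.26 in the Il1b KO, and 9.35, 9.30, 9.48 and 9.51 in wild type. All Il1a KO arrays lay below all others. Of all genes, 5.06% had such a gap between the Il1a KO and wild type, and 7.24% between the knockouts, in either direction. The log2 difference of Atf3 was -0.37 in the Il1a KO (SE 0.0606, limma adjusted p = 0.0272), -0.11 in the Il1b KO (adjusted p = 0.472) and -0.26 between the Il1a KO and the Il1b KO (adjusted p = 0.0998). The call in the Il1a KO was lost, with an unchanged direction, without wild type replicate 3 or 4, Il1a KO replicate 2, 3 or 4, or Il1b KO replicate 4 (adjusted p up to 0.123 without wild type replicate 4). It was also lost under 2 further settings, one of them the fit of the Il1a KO and wild type without the third group (adjusted p = 0.0774). In the same list Jun was at -0.15 in the Il1a KO (adjusted p = 0.564), Ddit3, the stress factor CHOP that induces Bcl2l11 and Bbc3, at -0.10 in the Il1b KO (adjusted p = 0.311), and Egr1 at 0.16 in the Il1b KO (adjusted p = 0.344), all against wild type.

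Of 9 measured genes of the p53 pathway, 0 passed by limma in any comparison, and 3 were lower at an unadjusted p under 0.05 in the Il1a KO and 4 in the Il1b KO, where 3.77% and 4.58% of all genes were. Gadd45a, a growth arrest gene, averaged 8.92 ± 0.0929 in the Il1a KO, 8.99 ± 0.0570 in the Il1b KO and 9.13 ± 0.0576 in wild type (SD, n = 4 each), with log2 differences of -0.22 (limma adjusted p = 0.18) and -0.14 (adjusted p = 0.27) against wild type. Ccng1, a cyclin induced by p53, averaged 11.21 ± 0.0683 in the Il1a KO, 11.18 ± 0.0272 in the Il1b KO and 11.35 ± 0.0944 in wild type (SD, n = 4 each), at -0.14 and -0.17 (adjusted p = 0.424 and 0.164). Trp53inp1 was at -0.11 and -0.12 (adjusted p = 0.434 and 0.252), and Zmat3 at -0.06 in the Il1a KO against the Il1b KO (adjusted p = 0.852).

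Of 5 measured genes on the caspase list 0 passed. Casp6, an executioner caspase linked to axon breakdown, averaged 7.93 ± 0.0778 in the Il1a KO, 7.87 ± 0.0600 in the Il1b KO and 8.05 ± 0.0859 in wild type (SD, n = 4 each), with log2 differences of -0.12 (limma adjusted p = 0.572) and -0.18 (adjusted p = 0.166). Casp8, the caspase that cleaves Bid, was at -0.19 in the Il1a KO and -0.12 in the Il1b KO (adjusted p = 0.687 and 0.666). Cflar, the inhibitor of caspase-8 activation, was at -0.08 in the Il1b KO (adjusted p = 0.622), and Fadd, the adaptor that recruits caspase-8 to death receptors, at 0.04 in the Il1a KO against the Il1b KO (adjusted p = 0.88). A list of 13 measured genes held mitochondrial death factors, channels of the outer membrane, apoptosome components and inhibitor of apoptosis genes. Of these 13, 0 passed, and Diablo, an antagonist of inhibitor of apoptosis proteins, was at -0.15 in the Il1b KO (adjusted p = 0.146) while Apaf1, the apoptosome scaffold, was at -0.06 in the Il1a KO (adjusted p = 0.738). Htra2, a mitochondrial protease, was at 0.06 in the Il1a KO (adjusted p = 0.841), and Birc5, the inhibitor of apoptosis relative survivin, at -0.08 in the Il1b KO (adjusted p = 0.504). Cycs, which encodes cytochrome c, was at 0.13 in the Il1a KO against the Il1b KO (adjusted p = 0.624).

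Among 13 measured further relatives of Bcl2, 0 passed. Becn1, which binds Bcl2 and starts autophagy, was at -0.13 in the Il1a KO and -0.12 in the Il1b KO (limma adjusted p = 0.32 and 0.212), with all knockout arrays between 9.55 and 9.63 and wild type between 9.67 and 9.76. Bok, an effector relative, was at 0.15 in the Il1a KO against wild type (adjusted p = 0.472) and at 0.18 in the Il1a KO against the Il1b KO (adjusted p = 0.352). Bnip3, a mitochondrial receptor of mitophagy, was at 0.10 in the Il1a KO (adjusted p = 0.46), and Bcl2l2, the survival protein Bcl-w, at 0.08 in the Il1b KO (adjusted p = 0.508). Bcl2l12 was at -0.04 in the Il1a KO and -0.06 in the Il1b KO (adjusted p = 0.92 and 0.681). Between the Il1a KO and the Il1b KO, Bcl2l13 was at -0.07 (adjusted p = 0.776) and Bcl2l10 at -0.05 (adjusted p = 0.938). On a list of 7 genes drawn up for the turnover of Mcl1 protein, not all of them established regulators of it, 0 passed. The ubiquitin ligase subunit Btrc was at 0.08 in the Il1a KO and 0.09 in the Il1b KO (limma adjusted p = 0.541 and 0.277). Fbxw7, another such subunit, was at 0.01 and 0.08 (adjusted p = 0.984 and 0.436). Trib1, a pseudokinase of the same list, was at -0.12 in the Il1a KO (adjusted p = 0.699).

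The members differed in how widely they varied from array to array. Within genotypes the SD was 0.138 for Bmf, 0.151 for Bbc3 and 0.153 for Pmaip1, at percentiles 85.7, 90.5 and 91.0 of all genes, and 0.0359 to 0.0731 for the other 6 members, at percentiles 4.1 to 38.8. Bbc3 spanned 0.50, Pmaip1 0.48 and Bmf 0.47 over the 12 arrays, and Bcl2l1, next in width, 0.34. The 3 genes whose pattern over the 12 arrays was most like Bbc3 were Col9a1 (r = 0.959), Spata31d1d (r = 0.959) and Dhrsx (r = 0.954). For Pmaip1 they were Cdca3 (r = 0.957), Fbxo17 (r = 0.935) and Hoxd11 (r = 0.933). Group means were not removed for these r values. In all, 85 genes had r above 0.9 with Bbc3 and 9 with Pmaip1, so the 3 named for Bbc3 were not particular to it.

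Levels of the members were set against the marker means of cell types over the arrays, neurons and mature oligodendrocytes included. After adjustment 0 of 108 pairs of a member and a marker list passed. The highest r was that of Mcl1 with the markers of monocytes and macrophages. With each group's mean removed, Mcl1 correlated with the mean of the 9 measured markers at r = 0.85 (rho = 0.804, permutation p = 0.00265 and 0.00584, n = 12 arrays) and Bcl2l1 at r = 0.737 (rho = 0.678, permutation p = 0.0129 and 0.0285). The adjusted p was 0.286 and 0.368 for r, and 0.362 for both values of rho. Bbc3 (r = 0.829, rho = 0.776) and Bmf (r = 0.778, rho = 0.783) with the 12 measured lymphocyte and natural killer cell markers, and Bid with the 6 motor neuron markers (r = 0.783, rho = 0.734), also exceeded Bcl2l1, each with a permutation adjusted p of 0.368 for r and 0.362 for rho. Bid with the lymphocyte and natural killer cell markers was just above Bcl2l1 (r = 0.738, rho = 0.699, permutation adjusted p = 0.403 and 0.362). These lymphocyte and natural killer cell markers were dim. Their mean was 5.92 to 6.01 in the Il1a KO, 5.86 to 6.05 in the Il1b KO and 5.84 to 6.12 in wild type. That is below the lower quartile of all probe sets of every array. The 2 arrays farthest from the median of the monocyte and macrophage marker mean, group means removed, were then left out. Without them r was 0.67 for Mcl1 and 0.585 for Bcl2l1. They were not picked by the extremes of the marker mean itself, which are given below. Without removing group means, and with arrays permuted across groups, Mcl1 reached r = 0.9 (rho = 0.881, permutation adjusted p = 0.00108), which mixes variation between and within genotypes. The monocyte and macrophage marker mean itself ran from 8.58 to 8.88 in the Il1a KO, from 8.73 to 9.14 in the Il1b KO and from 8.78 to 9.11 in wild type. Its extremes, Il1a KO replicate 1 and Il1b KO replicate 3, were also the extremes of Mcl1. The 13 neutrophil markers averaged 7.54 to 7.87 in the Il1a KO, 7.42 to 8.08 in the Il1b KO and 7.89 to 8.25 in wild type. In tissue RNA, fewer cells of a type and less RNA per cell cannot be told apart, and the part of these cells in the level of Mcl1 was not tested.

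Over 36 pairs of members 0 passed after adjustment. Bmf with Bbc3 had r = 0.778 (rho = 0.671, permutation p = 0.0105 and 0.0589, adjusted p = 0.242 and 0.453, n = 12 arrays), and r = 0.542 without the 2 arrays farthest from the median of Bmf, and Bcl2 with Bid was the strongest negative pair (r = -0.827, rho = -0.664, permutation p = 0.0202 and 0.0433, adjusted p = 0.242 and 0.453, and r = -0.455 without the 2 farthest arrays). The lower quartile of all probe sets of an array, chosen as a measure after the data were seen, correlated with Bbc3 at r = 0.885 (rho = 0.804, permutation adjusted p = 0.0107 and 0.0392 over 9 members) and with Bmf at r = 0.882 (rho = 0.741, adjusted p = 0.0107 and 0.0658). Without the 2 arrays farthest from the median, r was 0.701 and 0.664 and neither passed (permutation adjusted p = 0.235 for both). Leaving out extreme arrays narrows the range of the quartile and leaves fewer arrays. The lost calls therefore cannot show whether the relations rest on those arrays. Wild type replicate 1 had the highest quartile and the highest Bmf and Bbc3, and without it r was 0.773 for Bbc3 and 0.817 for Bmf. The part of this array property in the levels of Bmf and Bbc3 was not tested further.

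**Figure D4:**
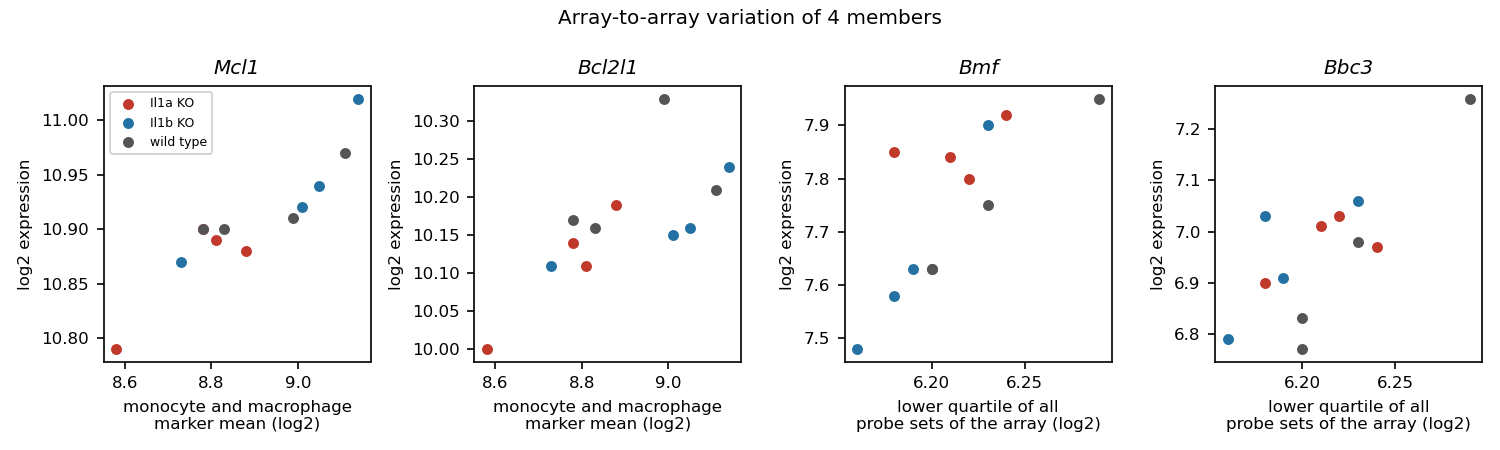
Log2 expression (y axis) of Mcl1 and Bcl2l1 against the mean of 9 monocyte and macrophage markers, and of Bmf and Bbc3 against the lower quartile of all probe sets of the array (x axes, log2). Points are arrays coloured by group (2 arrays with equal rounded values coincide); Il1a KO replicate 1 is lowest for Mcl1 and Bcl2l1, and wild type replicate 1 highest for Bmf and Bbc3.

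Without Il1a KO replicate 1, the member differences between the Il1a KO and wild type ran from -0.07 to 0.11, against -0.11 to 0.11 with it. Without wild type replicate 1 they ran from -0.12 to 0.18 in the Il1a KO and from -0.07 to 0.09 in the Il1b KO, against -0.11 to 0.05 in the Il1b KO with it. By limma 0 of 9 members passed without either array in any comparison, and the lowest adjusted p was 0.644 without Il1a KO replicate 1 and 0.392 without wild type replicate 1.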

How the data were processed

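Total RNA of the injured cord (200 ng per array) was labelled and hybridised to whole-transcript arrays, per the labels' protocols. The deposited log2 values, 1 per probe set and array, were made by the authors. Tools named in the submitters' processing notes are RMA, GCOS 1.4, Partek and limma, without their roles. RMA, if it made these values, equalises arrays, hides overall shifts in RNA amount and compresses dim genes. Detection calls and scans were not used.

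Of 35557 probe sets, 21789 had exactly 1 gene symbol, and the brightest set stood for a gene, which left 19938 genes with RefSeq symbols. Values of the 3 groups were fitted together with limma 3.58.1 in R 4.3.3 (moderated, no trend, two-sided, no block), and adjusted p is Benjamini-Hochberg over all genes. The sign of a difference is that of the first named group minus the second. Array number, 4 per group, limits the precision, and, since no animals are named, p-values reflect array-to-array spread only. The fit was tested on simulated data.

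Correlations over 12 arrays used 100000 permutations, two-sided. Arrays were permuted within groups where group means were removed, and over all arrays where they were not. The 2 arrays farthest from the median were picked on values with group means removed. Alternatives were a replicate block, array weights, an intensity trend, 2-group fits, dim genes (lowest 25%) left out, the mean of probe sets, repeated quantile normalization and each array left out. All members were named, with the 2 lowest p per list and comparison, any gene that passed, genes beside Bcl2l11 and the 3 most alike to the 2 widest members. Members and lists were chosen with earlier results of these data known.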

Additional observations from a re-analysis of the deposited data

Results flagged for a closer look

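In groups of 4 arrays, 3 member values stood far from their group by Dixon's ratio of gap to range, where chance marks about 1 in 20 groups and 27 groups were examined. Bcl2 in Il1a KO replicate 4 was 9.84, against 9.91 to 9.92 in the other Il1a KO arrays. Mcl1 in wild type replicate 3 was 10.97, against 10.90 to 10.91 in the other wild-type arrays. Bak1 in Il1b KO replicate 3 was 9.41, against 9.34 to 9.35 in the other Il1b KO arrays. Each gap was under 0.1 on the log2 scale.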

How the results depend on the processing

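The count of 0 members past the test held in all 3 comparisons under every alternative run, and the lowest adjusted p of any member was 0.0983 (Bmf in the Il1a KO minus the Il1b KO, array weights). Of 513 member differences recomputed, 502 kept their sign. Many of these could not turn. The replicate block, the intensity trend and fits of only the groups compared left each member difference unchanged. Leaving out dim genes, averaging probe sets or leaving out an array of the group not compared also left it unchanged. The count of 502 therefore says less about the signs than its size implies. The sign turned for values near 0. With repeated quantile normalization Mcl1 was -0.00497 and Bbc3 0.0156 in the Il1b KO against wild type. With single arrays left out, Bbc3 ranged from -0.0435 to 0.12 and Bcl2 from -0.0559 to 0.0122 in the Il1a KO against wild type. In the Il1b KO against wild type Bbc3 ranged from -0.079 to 0.0866, Bid from -0.0132 to 0.0611 and Mcl1 from -0.0097 to 0.0403. Between the Il1a KO and the Il1b KO, Bbc3 ranged from -0.0174 to 0.0737 and Pmaip1 from -0.00645 to 0.155. Kcnip3 ranged from -0.0178 to 0.10 in the Il1a KO against wild type.

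Counts over all genes moved more. The Il1a KO against wild type gave 34 genes, and 306 with array weights, 72 with a trend, 15 in a 2-group fit and 18 to 49 with single arrays left out. The Il1b KO against wild type gave 162, and 1145, 303, 85 and 106 to 177 under the same settings. The Il1a KO against the Il1b KO gave 130, and 244 with array weights. The causes were not tested. Of correlations with marker means 0 passed, and 1 passed without centring. Replicate numbers did not pair the arrays (r from -0.374 to 0.441 over 12 same-numbered pairs, and 3 of 12 arrays matched their own number best). With a replicate block the counts were 26, 120 and 105 genes and 0 members in each comparison, and the Atf3 call in the Il1a KO was lost (adjusted p = 0.0664), as it was in the 2-group fit (0.0774); the block ended no other call on a named gene. Atf3 between the knockouts passed with array weights (adjusted p = 0.0413) and with a trend (0.0422). Bbc3 and Pmaip1 lay at percentiles 29.5 and 32 of all genes by level, and their signal over background was not measured here.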

Other observations

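Chchd5, a mitochondrial protein gene in the stretch between Bcl2l11 and Il1a, split the Il1a KO arrays. It read 8.67, 8.55, 9.29 and 9.23 in the Il1a KO, 8.70, 8.67, 8.68 and 8.70 in the Il1b KO, and 8.37, 8.34, 8.43 and 8.4 in wild type. All knockout arrays lay above all wild-type arrays, and Il1a KO replicates 3 and 4 lay above the other 2 of their group. The log2 difference was 0.55 in the Il1a KO (limma adjusted p = 0.18) and 0.31 in the Il1b KO (adjusted p = 0.353), so neither passed. Bcl2l11 itself read 7.71 and 7.70 in Il1a KO replicates 3 and 4, against 7.62 and 7.66 in replicates 1 and 2. That ordering was not particular to Bcl2l11. Bcl2l1 had it too, as did Bid on chromosome 6, with 7.88 and 7.90 against 7.85 and 7.80. Bak1 had the reverse, with 9.27 and 9.28 against 9.30 and 9.29, and the remaining members had neither. Whether Bcl2l11 shares the split of Chchd5 was not tested. Chchd5 was singled out after its values were seen.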
